A study of Mus musculus with 6 samples.

Results

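The genes described here are the Apoe locus and the liver X receptor (LXR) genes: Apoe, its neighbours Apoc1, Apoc2 and Tomm40, the LXR targets Abca1, Abcg1, Mylip and Pltp, and the genes of both LXRs, Nr1h2 and Nr1h3. They are 10 of the 55487 genes in the deposited count tables and were chosen by symbol through the GRCm38 annotation. The question was whether a lower level of Apoe in microglia with the Cre transgene, made to delete REV-ERBα, was shared by the genes beside Apoe or by LXR targets on other chromosomes. These sets are not exclusive, because apolipoprotein genes at the Apoe locus can be LXR targets too. REV-ERBα is a nuclear receptor and transcriptional repressor of the circadian clock, encoded by Nr1d1.

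RNA was sequenced from 6 cultures of primary cortical microglia prepared from CAG::CreERT2; Nr1d1fl/fl pups of postnatal days 1 to 3, 3 without the Cre transgene (Cre-) and 3 with it (Cre+). All 6 cultures, controls included, carried the floxed Nr1d1 alleles and received 1.5 μM 4-hydroxytamoxifen (4-OHT), the ligand that activates CreERT2, for 2 days according to the labels. The CAG promoter is active in nearly all cell types, so the transgene was not specific to microglia, and the cells were shaken off mixed glial cultures grown with GM-CSF. The labels do not say whether cultures of a group came from separate animals, so the p-values measure the spread between these cultures, which may be partly technical. The sex of the pups is not in the labels. Xist, the RNA of the inactive X chromosome, had 0 to 4 counts per library, and the Y-linked gene Ddx3y was at 35.3 to 45.8 CPM in all 6.

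Apolipoprotein E is the main protein of the lipid particles that glia release, and it carries cholesterol between cells of the brain. The LXRs are nuclear receptors that are activated by oxysterols, oxidised forms of cholesterol, and bind DNA as partners of a retinoid X receptor. When cholesterol accumulates in a macrophage or microglial cell, LXRs raise the transcription of exporters such as ABCA1 and ABCG1 and of the apolipoproteins that take up the exported lipid.

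Each library held 87545868 to 93942161 gene counts in Cre- and 93701215 to 110909129 in Cre+. Levels are given as CPM, counts for every 1000000 counts of the library, on library sizes scaled by the trimmed mean of M values (TMM), and differences as log2 fold changes of Cre+ over Cre- with their standard error (SE) from edgeR's quasi-likelihood test, so that a negative value is a lower level in Cre+. A gene was called at a Benjamini-Hochberg adjusted p of at most 0.05 over all 11429 genes tested, those above 1 CPM in at least 4 libraries. Nr1d1 itself, from which the recombination removes exons 3 to 5, was at 2.35, 1.20 and 1.64 CPM in Cre- and at 1.00, 0.945 and 1.08 CPM in Cre+. All Cre+ cultures were below all Cre- cultures, but the log2 fold change of Nr1d1 of -0.77 (SE 0.25) had an edgeR adjusted p of 0.094. When 1 library was left out, the adjusted p was 0.041 without Cre- replicate 2. It stayed above the threshold in 5 of the 6 such fits, at up to 0.31. The log2 fold changes of these 6 fits ran from -0.98 to -0.50. Of 14 microglia and macrophage markers, 13 passed the expression filter, and P2ry12, at 0.401 to 1.03 CPM, did not. The summed marker level was 11029 to 11518 CPM in Cre- and 10912 to 11236 CPM in Cre+. More genes had at least 1 count in Cre- (32587 to 35166) than in Cre+ (29941 to 30677).

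Apoe was lower in all 3 Cre+ cultures. It was at 15123, 13543 and 15357 CPM in Cre- and at 10133, 9614 and 9724 CPM in Cre+. The highest Cre+ culture therefore lay below the lowest Cre- culture. The mean of Apoe fell from 14674 ± 987 to 9824 ± 273 CPM (SD, n = 3 cultures each), which is 33.1% lower, with a log2 fold change of -0.58 (SE 0.04, edgeR adjusted p = 8.2e-07). Apoe was among the most abundant transcripts, at rank 7 to 9 of all genes by count and 1.33% to 1.50% of all counts in Cre-, against rank 11 to 12 and 0.955% to 1.00% in Cre+. Leaving out any one of the 6 libraries gave log2 fold changes between -0.63 and -0.55, each past the threshold.

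Other glial cells also make Apoe, so markers of such cells were read beside it. Of 10 astrocyte markers, 9 stayed under 1 CPM in every library, including Gfap at 0.119 to 0.179 CPM in Cre- and 0.0794 to 0.397 CPM in Cre+. The astrocyte markers summed to 13.3 to 14.7 CPM in Cre- and 11.5 to 15.2 CPM in Cre+, most of it from Aldh1l1. The astrocyte sums overlapped between the groups. The 8 neuron markers summed to 3.63 to 4.52 against 2.53 to 2.74 CPM. The 6 fibroblast and mural cell markers summed to 1.10 to 2.20 against 0.546 to 0.623 CPM, so both sums were lower in every Cre+ culture. Of these, 6 neuron markers and all 6 fibroblast and mural cell markers stayed under 1 CPM in every library. Genes outside the expression filter as a whole also held fewer counts in Cre+, 1.06% to 1.39% of the library against 1.56% to 1.71% in Cre-. The 9 oligodendrocyte lineage markers summed to 83.8 to 93.1 and 81.0 to 85.8 CPM, and the 5 endothelial markers to 20.3 to 22.5 and 24.0 to 27.6 CPM. Most of the endothelial sum came from Flt1, a VEGF receptor, at 19.4 to 20.5 CPM in Cre- and 23.1 to 26.5 CPM in Cre+, which rose by 0.33 on the log2 scale (edgeR adjusted p = 0.025). No marker of these lists was at 0 in all libraries. The part of these cells in the difference of Apoe was not tested, and in bulk RNA fewer cells of a type cannot be told apart from less RNA per cell.

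**Figure D1:**
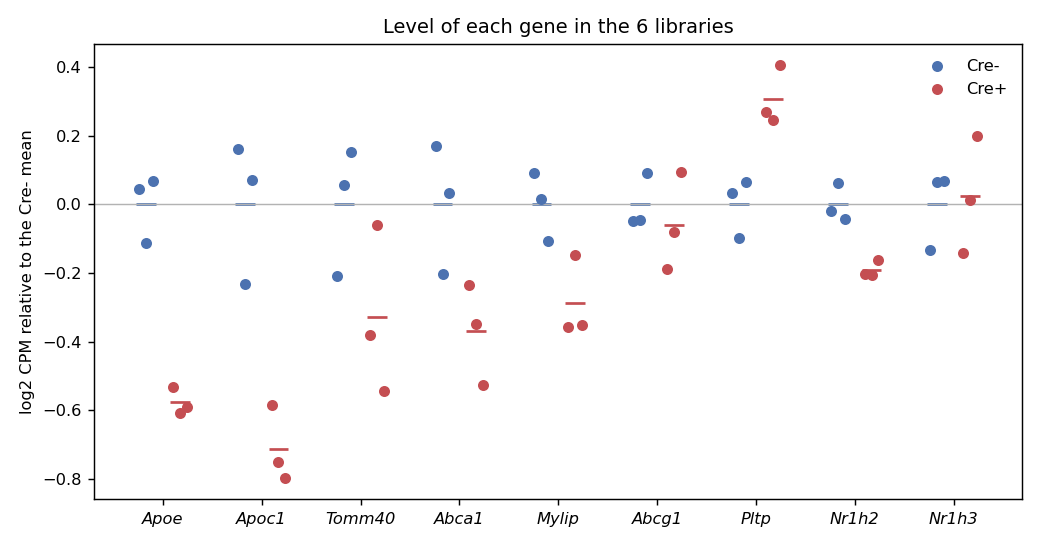
Level of 9 of the 10 genes in each of the 6 cultures, as log2 CPM relative to the Cre- mean of that gene. Points are single cultures, horizontal bars are group means, blue is Cre- and red is Cre+. Apoe, Apoc1, Abca1, Mylip and Nr1h2 lie lower in all Cre+ than in all Cre- cultures, Pltp lies higher, and the groups overlap for Tomm40, Abcg1 and Nr1h3.

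Apoe lies on chromosome 7 (ENSMUSG00000002985, GRCm38 chr7:19696109-19699188, minus strand). Apoc1, which encodes a small apolipoprotein that inhibits lipid transfer and lipases, lies 3.449 kb from it on the same strand (ENSMUSG00000040564, chr7:19689481-19692660). Apoc1 was at 21.3, 16.2 and 20.0 CPM in Cre- and at 12.7, 11.3 and 11.0 CPM in Cre+. No Cre+ culture reached the Cre- range. Apoc1 fell by 0.72 on the log2 scale (SE 0.11, edgeR adjusted p = 0.0010), or 39.2% of its mean. The log2 fold changes that left out 1 library lay between -0.82 and -0.64, and all stayed past the threshold.

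The neighbour on the other side, Tomm40, encodes the channel of the protein import complex of the outer mitochondrial membrane (ENSMUSG00000002984, chr7:19701313-19715438, minus strand, 2.125 kb from Apoe). Tomm40 was at 5.93, 7.12 and 7.62 CPM in Cre- and at 5.27, 6.57 and 4.70 CPM in Cre+. One Cre+ culture lay within the Cre- range, and the log2 fold change of -0.32 (SE 0.15) did not pass the threshold (edgeR adjusted p = 0.26). The range of 2 standard errors around the Tomm40 value, -0.63 to -0.02, includes the log2 fold change of Apoe. Exons of Tomm40 share 258 bases (5.72%) with Gm20512 on the opposite strand, which had 0 to 2 counts per library.

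Apoc2 encodes the cofactor that activates lipoprotein lipase and lies 18.2 kb from Apoe (ENSMUSG00000002992, chr7:19671579-19677941, minus strand). It was near the limit of detection, with 20, 0 and 5 counts in Cre- and 0, 0 and 1 in Cre+, and was not tested in the fit. In an exact two-sided permutation test of its CPM, 3 against 3, p was 0.4 where the smallest possible was 0.1. A difference of Apoc2 was thus not detectable at this depth. In addition, 646 of its exonic bases (79.5%) are shared with Gm44805 on the same strand, which was at 0 in all libraries, so that reads from these bases could not be assigned to 1 gene.

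Within 100 kb of Apoe the annotation held 15 genes, of which 8 were tested. All 8 had a log2 fold change below 0, with a median of -0.33, where 49.4% of all genes tested were below 0 and their median was 0.00. The 8 had a median GC content of 57.1%. In the deciles of genes tested with the highest and next highest GC content, 75.9% and 65.8% were below 0. Of the 8, 3 were called lower: Apoe, Apoc1 and Clptm1. Across all genes tested, 2.56% were called lower. The groups did not overlap for 4 of the 8, all lower in Cre+, where 11.7% of all genes tested were of this kind. These counts include Apoe, from which the question started, and Apoc1 and Tomm40. Of the 5 tested neighbours besides them, 5 were below 0, 1 was called lower and 2 did not overlap between the groups, with a median log2 fold change of -0.30.

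Clptm1, which encodes a transmembrane protein, was at 131, 145 and 141 CPM in Cre- and at 117, 117 and 105 CPM in Cre+. Its log2 fold change of -0.30 (SE 0.06, edgeR adjusted p = 0.0052) stayed past the threshold when any one library was left out. The other 4 did not pass the threshold. Relb, a subunit of the NF-κB transcription factor family, had a log2 fold change of -0.42 (SE 0.17, edgeR adjusted p = 0.20). Nectin2, a cell adhesion protein, was at -0.35 (SE 0.14, edgeR adjusted p = 0.18), and the remaining neighbours Bcam and Clasrp were at -0.21 and -0.09. Both were expressed at under 3 CPM in every library.

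In a window of 500 kb on each side of Apoe, 22 of 71 genes were tested, and 18 of them were below 0 (81.8%) with a median log2 fold change of -0.20. Without Apoe, Apoc1 and Tomm40, 15 of 19 were below 0, with a median of -0.18. The only call added by the wider window was Trappc6a, a subunit of a vesicle tethering complex. Its log2 fold change was -0.31 (SE 0.09), and its edgeR adjusted p of 0.0498 lay just within the threshold. The largest fall in the window was that of Rtn2, 400 kb from Apoe, at -0.77 (SE 0.22, edgeR adjusted p = 0.056). Its Cre- mean was 1.95 CPM. Vasp was at -0.32 (edgeR adjusted p = 0.053). For both, all Cre+ cultures were below all Cre- cultures. Over the 848 genes tested on chromosome 7, 59.9% were below 0, with a median of -0.03. The genes in the 500 kb window had a median GC content of 57.8%, against 49.3% over all genes tested. In the decile of genes tested with the highest GC content, 75.9% were below 0.

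**Figure D2:**
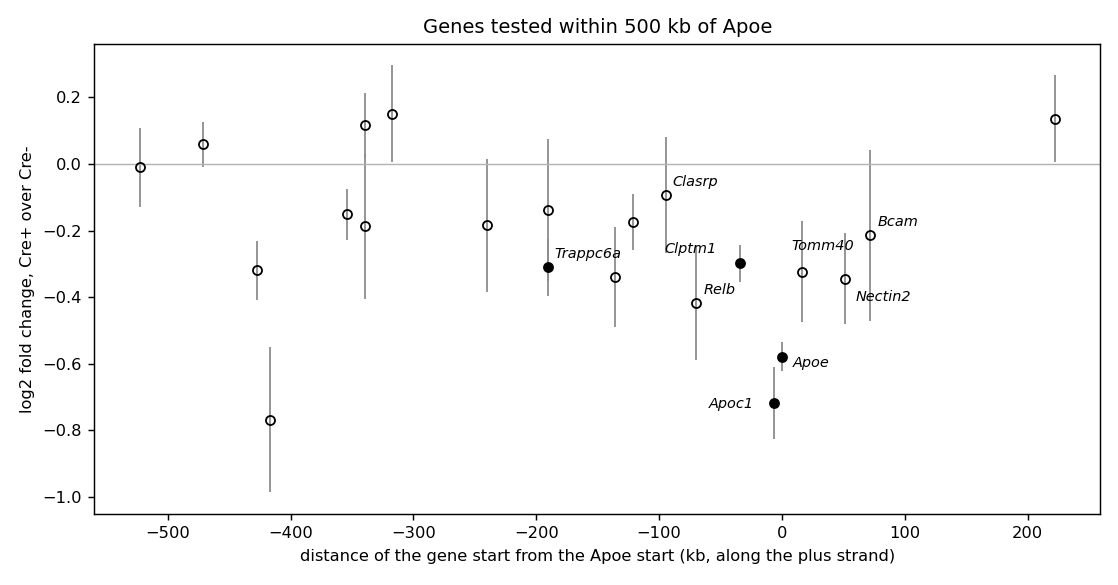
Log2 fold change of Cre+ over Cre- (vertical axis, bars show 1 SE) of the 22 genes tested within 500 kb of Apoe, against the distance of their start from the start of Apoe in kb. Filled points are the 4 genes called lower, and those within 100 kb or called are named. Apoc1 and Apoe lie lowest within 100 kb, and all 8 genes there lie below 0.

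GC content moved with the fold change over the whole table. In the decile of genes with the lowest GC content (31.0% to 41.2%), the median log2 fold change was 0.07, and in the decile with the highest (57.2% to 75.9%) it was -0.12. Apoe (59.5% GC) and Nr1h2 (60.6%) belong to that highest decile and Apoc1 (54.9%) to the one before it. When a trend in GC content and length was removed from the fit, an alternative added after seeing the data, the log2 fold change of Apoe was -0.45 (edgeR adjusted p = 3.2e-05), that of Apoc1 -0.68 (0.0016) and that of Clptm1 -0.26 (0.023). All of these stayed past the threshold.

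**Figure D3:**
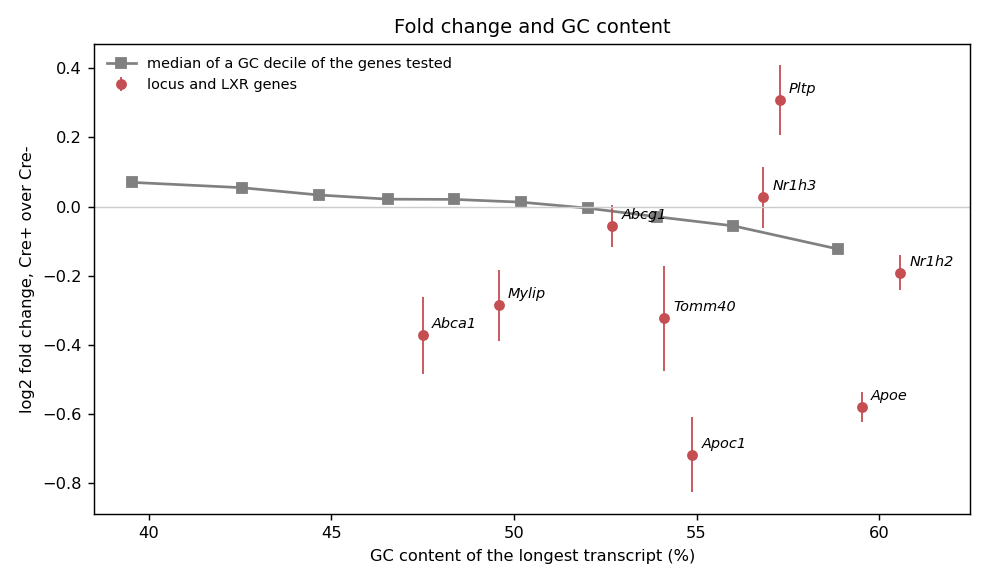
Log2 fold change of Cre+ over Cre- against the GC content of the longest transcript in percent. Grey squares join the medians of 10 groups, ordered by GC content, of those genes tested that had a GC value. Red points with bars of 1 SE are 9 of the genes described. The grey medians run from 0.07 to -0.12. Apoe and Apoc1 lie far below them, Nr1h2 lies near them, and Pltp lies above.

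Among the LXR targets away from the locus, edgeR called 0 of 4 in either direction, where it called 5.07% of all genes tested. Of the 4, 3 had an unadjusted p under 0.05 (19.1% of all genes tested), and DESeq2 called 2, Abca1 and Pltp (7.79% of all genes tested). Abca1 encodes the transporter that loads cholesterol and phospholipid onto apolipoproteins (ENSMUSG00000015243, chr4:53030787-53159895, minus strand). It was at 18.1, 14.0 and 16.4 CPM in Cre- and at 13.7, 12.6 and 11.2 CPM in Cre+. The groups did not overlap, although Cre- replicate 2 and Cre+ replicate 1 lay close together. The log2 fold change of Abca1 was -0.37 (SE 0.11, edgeR adjusted p = 0.070). The range of 2 standard errors around it, -0.60 to -0.15, includes the value of Apoe. Abca1 passed the threshold in DESeq2 (adjusted p = 0.019), with the GC and length trend removed (0.044) and without Cre- replicate 2 (-0.47, 0.032). Over all alternatives its adjusted p ran from 0.019 to 0.24.

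Abcg1, the transporter that moves cholesterol to lipoprotein particles, did not pass the threshold (ENSMUSG00000024030, chr17:31057675-31117988, plus strand). It was at 626, 628 and 690 CPM in Cre- and at 568, 612 and 691 CPM in Cre+. The ranges overlapped. The log2 fold change of Abcg1 was -0.06 (SE 0.06, edgeR adjusted p = 0.69), and the range of 2 standard errors around it was -0.18 to 0.07, which does not reach the value of Apoe.

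Mylip encodes a ubiquitin ligase that lowers the uptake of lipoproteins (ENSMUSG00000038175, chr13:45389742-45412022, plus strand). It was at 14.9, 14.2 and 13.0 CPM in Cre- and at 11.0, 12.7 and 11.0 CPM in Cre+. The groups did not overlap, and the log2 fold change of Mylip was -0.29 (SE 0.10, edgeR adjusted p = 0.13).

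Pltp encodes the phospholipid transfer protein of lipoproteins (ENSMUSG00000017754, chr2:164839518-164857711, minus strand) and had the opposite sign. It was at 10.9, 9.99 and 11.2 CPM in Cre- and at 12.9, 12.7 and 14.2 CPM in Cre+. The lowest Cre+ culture lay above the highest Cre- culture. The log2 fold change of Pltp was 0.31 (SE 0.10, edgeR adjusted p = 0.097), and it passed the threshold in DESeq2 (0.041), without a filter on expression (0.015) and with the GC and length trend removed (0.042). Of the exonic bases of Pltp, 495 (19.3%) lie on the opposite strand of Ctsa, a lysosomal protease gene at a mean of 2262 CPM in Cre- and 2248 CPM in Cre+. The library kit does not mark strand, so reads over these bases cannot be told apart, and the part of Ctsa in the Pltp counts was not tested.

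Of the genes for the receptors, Nr1h3 encodes LXRα (ENSMUSG00000002108, chr2:91184061-91202834, minus strand). Nr1h3 was at 26.8, 30.7 and 30.8 CPM in Cre- and at 26.6, 29.7 and 33.7 CPM in Cre+, with overlapping groups. Its log2 fold change was 0.03 (SE 0.09, edgeR adjusted p = 0.92), with a range of 2 standard errors of -0.15 to 0.20.

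Nr1h2 encodes LXRβ (ENSMUSG00000060601, chr7:44549616-44553951, minus strand). It lies on the same chromosome as Apoe, but 24850 kb away. It was at 94.9, 100.5 and 93.3 CPM in Cre- and at 83.5, 83.3 and 86.0 CPM in Cre+. Again the groups were apart. Nr1h2 fell by 0.19 on the log2 scale (SE 0.05, edgeR adjusted p = 0.041), 12.4% of its mean. This call was lost in 11 of 17 alternatives, among them the omission of each of the 6 libraries in turn (adjusted p from 0.061 to 0.16), and with the GC and length trend removed the log2 fold change was -0.05 (0.70).

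Taking the 10 genes as a list, 9 were tested, 3 were called lower (Apoe, Apoc1 and Nr1h2) and 0 higher, where 5.07% of all genes tested were called, 2.56% lower and 2.5% higher. DESeq2 called 5 of the genes, 4 lower and 1 higher, where it called 7.79% of all genes tested, 4.18% lower and 3.6% higher. At an unadjusted p under 0.05 there were 7 of 9, where 19.1% of all genes tested had such a p. The groups did not overlap for 6 of the 9, 5 lower and 1 higher in Cre+, where 24.0% of all genes tested did not overlap. The median log2 fold change was -0.29. All of these counts and this median include Apoe, from which the question started. Without the locus, Nr1h2 was the only call, and the 6 LXR genes on other chromosomes or far along chromosome 7 included values on both sides of 0.

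Because levels of different genes compare only per length, the order of abundance was taken as CPM per kb of gene length in Cre-. Apoe was first at 6864 ± 462 CPM per kb (SD, n = 3 cultures). It was followed by Abcg1 at 88.8, Nr1h2 at 28.7, Apoc1 at 25.8 and Nr1h3 at 11.7 CPM per kb. Mylip (4.35), Pltp (4.18), Abca1 (1.56), Tomm40 (1.53) and Apoc2 (0.117) were the least abundant. The Cre- ranges of Nr1h2 and Apoc1, of Mylip and Pltp, and of Abca1 and Tomm40 overlapped, so these neighbours in the order did not differ beyond their spread. In Cre+ the mean of Pltp (5.17) was above that of Mylip (3.57 CPM per kb).

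**Figure D4:**
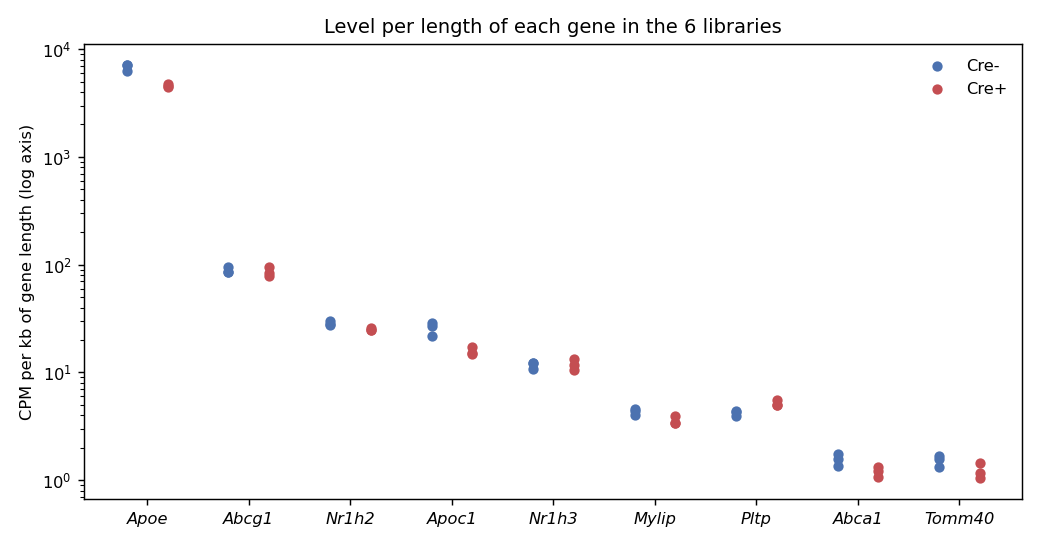
CPM per kb of gene length on a logarithmic axis for 9 of the 10 genes, each point 1 culture, blue for Cre- and red for Cre+, genes ordered by their Cre- mean. Apoe lies far above the other genes in both groups, at a mean of 6864 CPM per kb in Cre- and 4595 CPM per kb in Cre+. Of those drawn, Tomm40 has the lowest mean in Cre- (1.53) and Abca1 the lowest in Cre+ (1.20 CPM per kb). Apoc2, with libraries at 0, is left out.

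Whether the change of Apoe differed from that of each other gene was tested on the log2 ratio of Apoe to that gene within each library, with an exact two-sided permutation test of 3 against 3 cultures and adjustment over 9 ratios. The design cannot give a p under 0.1. The ratio to Apoc1 was 9.47, 9.70 and 9.58 in Cre- and 9.64, 9.73 and 9.79 in Cre+. Its groups overlapped, the difference was 0.13 and the exact p was 0.2, so a difference between the changes of Apoe and Apoc1 was not detectable. The ratios to Tomm40 and Abca1 differed by -0.25 and -0.21, with overlapping groups (exact p 0.5 and 0.2). The ratios of Apoe to Abcg1, Nr1h2, Nr1h3, Mylip and Pltp were lower in every Cre+ than in every Cre- culture, by -0.52, -0.39, -0.60, -0.29 and -0.88 on the log2 scale. Each of these had the smallest p the exact test can give, 0.1, and an adjusted p of 0.18. The ratio to Apoc2 was not read, since its counts were at or near 0.

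Promoter sequence was read beside these values because LXR and its partner bind DR4 elements, a pair of AGGTCA hexamers with 4 bases between them, and REV-ERBα binds ROR elements. The RefSeq promoter table (GRCm38.p6), with 250 bases before and 50 after each start, held 32817 windows and contained 8 of the 10 genes. The exact DR4, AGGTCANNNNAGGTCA on either strand, occurred in 5 windows (0.0152%) and in none of these genes. With up to 3 of its 12 fixed letters different, it occurred in 21.9% of all windows and in 1 of the 11 windows of these genes, that of Abca1. The ROR element AANTAGGTCA occurred in 0.219% of all windows and in none of the 8 genes, and the hexamer AGGTCA alone, which both longer motifs contain, in 16.3% of all windows and, of the 8 genes, in Apoc2. No match in these windows says nothing of enhancers elsewhere.

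The promoters of Apoe (chr7:19699189-19699438) and Abca1 (chr4:53159896-53160145), both on the minus strand, are shown as the 250 bases up to the start, read 5′ to 3′, since Apoe had the smallest adjusted p of the 10 genes and Abca1 the one DR4-like match. Capitals mark the match in Abca1.
Apoe: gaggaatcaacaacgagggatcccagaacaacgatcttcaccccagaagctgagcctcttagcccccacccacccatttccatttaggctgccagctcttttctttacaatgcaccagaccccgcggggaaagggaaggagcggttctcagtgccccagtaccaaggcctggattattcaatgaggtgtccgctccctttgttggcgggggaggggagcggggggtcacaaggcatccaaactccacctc
Abca1: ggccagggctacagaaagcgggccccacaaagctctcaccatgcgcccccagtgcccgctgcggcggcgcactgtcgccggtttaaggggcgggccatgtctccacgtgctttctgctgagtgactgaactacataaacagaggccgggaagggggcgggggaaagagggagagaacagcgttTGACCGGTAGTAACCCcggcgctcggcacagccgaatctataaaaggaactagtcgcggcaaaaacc

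Among 17 other known LXR targets, 10 were in the table with 15 windows, and 4 of these windows, each of a different gene, held such a match, a share near the 21.9% of all windows. They are shown with Abca1, each in the direction in which it reads as the DR4, with the hexamers in capitals and the spacer in lower case.
Abca1: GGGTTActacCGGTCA
Fasn: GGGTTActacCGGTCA
Srebf1: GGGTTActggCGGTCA
Rnf145: GGGTTActacAGTTCA
Arl4c: GGGTCAggcgGGGTCT
The sites of Abca1 and Fasn were identical and lay 67 and 225 bases before the start. That of Srebf1 lay 182 bases before one of its starts, that of Rnf145 92 and that of Arl4c 75 bases before theirs. Of these genes only Arl4c was called.

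The 17 other LXR targets were read for a change elsewhere in the programme, and 13 of them were tested. Of the 13, 3 were called lower (Arl4c, Lpcat3 and Smpdl3a) and 1 higher (Lpl), where 2.56% and 2.5% of all genes tested were. The median log2 fold change was -0.07, with 8 below and 5 above 0, and the groups did not overlap for 6 of 13 (24.0% over all genes tested).

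Arl4c, a small GTPase involved in cholesterol transport, was at 7.49, 6.62 and 7.99 CPM in Cre- and at 4.44, 5.07 and 4.36 CPM in Cre+. Its groups did not overlap and it fell by 0.67 on the log2 scale (SE 0.13, edgeR adjusted p = 0.0080), a call kept in all 17 alternatives. Smpdl3a, a phosphodiesterase of the acid sphingomyelinase family, fell by 0.20 (SE 0.04, edgeR adjusted p = 0.012), a call lost in 3 alternatives, among them without Cre- replicate 3 (0.052). Lpcat3, which places polyunsaturated fatty acids in phospholipids, fell by 0.22 (SE 0.06, edgeR adjusted p = 0.036), a call lost in 10 alternatives, among them without any one library other than Cre+ replicate 1 (the highest of these 0.13).

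Lpl encodes lipoprotein lipase and was the target called in the other direction, at 3835, 3914 and 3784 CPM in Cre- and 4286, 4263 and 4299 CPM in Cre+. The groups did not overlap, and Lpl rose by 0.16 on the log2 scale (SE 0.03, edgeR adjusted p = 0.012). The call of Lpl was lost without Cre- replicate 3 (0.060) and with the GC and length trend removed (0.056). The targets of fatty acid synthesis were not called. Srebf1, their transcriptional activator, had a log2 fold change of -0.23 (edgeR adjusted p = 0.092), Scd1 and Scd2, the desaturases, 0.34 and 0.15, and Fasn, the fatty acid synthase, 0.02. Mertk, a receptor for the uptake of apoptotic cells, was at -0.07. Cd5l, Abcg5, Abcg8 and Apoc4, which lies 14.6 kb from Apoe, were below the filter.

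Of 11 genes for partners, coactivators and corepressors of LXR, 10 were tested, and 1 was called lower and 1 higher, where 2.56% and 2.5% of all genes tested were. Rxra, the retinoid X receptor partner, fell by 0.29 on the log2 scale from 33.2 ± 1.39 to 27.1 ± 2.65 CPM (SE 0.08, edgeR adjusted p = 0.046), a call lost without each of the 6 libraries in turn (up to 0.17). Tbl1x, a subunit of the corepressor complex, rose by 0.37 (SE 0.09, edgeR adjusted p = 0.028), a call lost in 7 alternatives, among them without any one library other than Cre+ replicate 1 (the highest of these 0.12). The median log2 fold change over the 10 was -0.08.

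**Figure D5:**
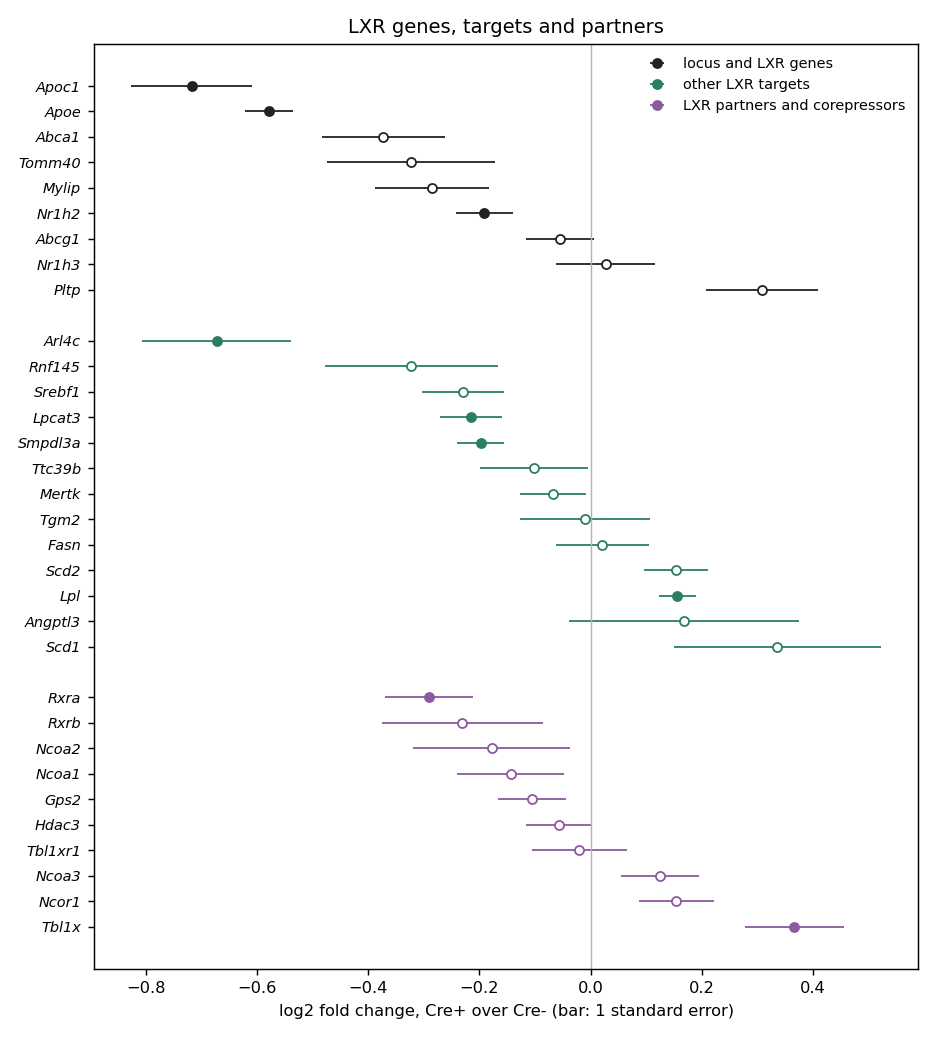
Log2 fold change of Cre+ over Cre- with bars of 1 SE for 9 of the locus and LXR genes (black), 13 other LXR targets (green) and 10 LXR partners and corepressors (purple), each list ordered by value. Filled points passed an adjusted p of 0.05. In each list values lie on both sides of 0, from -0.72 for Apoc1 to 0.37 for Tbl1x.

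The genes whose levels over the 6 cultures were most like those of Apoe were ranked by the root mean square difference of log2 CPM relative to the Cre- mean, among genes that averaged 5 CPM or more. As this measure uses the same cultures as the comparison, it is a description without a test. The nearest were Pmepa1 (0.040), Cnnm3 (0.065), Cxcr4 (0.068) and Frk (0.073), none of them on chromosome 7. Pmepa1, which encodes an inhibitor of TGF-β signalling, was at 19.7, 17.3 and 20.0 CPM in Cre- and at 13.0, 11.7 and 12.4 CPM in Cre+. As for Apoe, Cre- replicate 2 was the lowest Cre- culture and Cre+ replicate 1 the highest Cre+ culture. Apoc1 came at rank 42 (0.12) and Abca1 at rank 112, while Abcg1, Nr1h3 and Pltp were at ranks 2492, 5040 and 8168.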

How the data were processed

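RNA of 6 microglial cultures (3 Cre-, 3 Cre+) was sequenced by the authors as paired-end reads from SMARTer cDNA. The deposited counts give the reads assigned to each Ensembl gene, made by the authors on GRCm38 with no normalization or filter, with STAR 2.7.9a and featureCounts 2.0.3 per the labels (the methods name other versions). The authors divided these counts by the library total to give the deposited CPM, and the deposited FPKM are the CPM over gene length. Both were read only to check their unit.

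The members and gene lists were chosen with earlier results of these data known. The genes named are the 10 members, Nr1d1, the genes tested within 100 kb of Apoe, of each list those past the threshold and otherwise up to 3 with the smallest p, and the genes most like Apoe. A few genes of these lists are not reported here. Trappc6a, Rtn2, Vasp, Scd1, Scd2, Fasn, Rnf145, Mertk, Flt1, the sex-linked genes and the untested targets were named after their values were seen. Genes came from GENCODE M21 by identifier, with 260 unmatched. After genes of ribosomal RNA biotypes were removed, those above 1 CPM in at least 4 libraries were fitted with edgeR 4.0.16 (TMM, quasi-likelihood test, no covariates) in R 4.3.3, with Benjamini-Hochberg adjustment. The SE is the log2 fold change over the square root of F. The coefficient of variation between cultures was 10.0%. Ratios used 0.5 added to each count, and intervals of 2 SE. The fit was tested on simulated data. Alternatives were other normalizations and filters, limma 3.58.1 (voom with and without quality weights, the former used by the study), DESeq2 1.42.0, a replicate block, leaving out each library with the same genes tested, and, added after seeing the data, removal of a GC and length trend. The labels give no batch.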

Additional observations from a re-analysis of the deposited data

How the results depend on the processing

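Apoe, Apoc1, Clptm1 and Arl4c stayed past the threshold in the same direction in all 17 alternatives, Apoe at -0.63 to -0.45 and Apoc1 at -0.82 to -0.64 on the log2 scale. The 3 calls within 100 kb of Apoe stayed 3 throughout. The wider window of 500 kb was counted in the main fit only, with 4 calls. Over all genes tested, the 579 calls became 890 with DESeq2, 1528 with no filter on expression (851 higher and 677 lower, against 286 and 293, with the median of all log2 fold changes at -0.20), 359 with the GC and length trend removed together with a replicate block, and 317 to 448 when 1 library was left out. The calls among the 10 genes became 5 with DESeq2. They became 4 with the GC and length trend removed, where Abca1 and Pltp were called and Nr1h2 was not. With no filter they stayed 3, with Pltp in place of Nr1h2, and with filterByExpr they became 2. When 1 library was left out they were 2 to 3, with Abca1 in place of Nr1h2 without Cre- replicate 2. The 4 calls among other LXR targets became 2 with no filter, with filterByExpr, and with the GC and length trend removed with or without the block, and 1 to 4 when 1 library was left out (1 without Cre- replicate 3). The cause of these differences was not tested. Log2 fold changes near 0 turned sign for Lrpap1, at 0.026 with no filter, for Abcg1, at 0.023 with no filter and -0.14 to 0.0077 when 1 library was left out, and, over the same omissions, for Nr1h3 (-0.066 to 0.11), Bcam (-0.42 to 0.13) and Cyp27a1 (-0.12 to 0.23).

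Same-numbered libraries did not deviate together (correlations over genes of 0.01, -0.02 and -0.05). Differently numbered libraries gave -0.03 to 0.06. With 3 libraries a group, such correlations cannot exclude that the cultures were paired. A replicate block gave 430 calls over all genes, 2 among the 10 genes (Nr1h2 at an adjusted p of 0.093), 3 within 100 kb of Apoe and 3 among other LXR targets. Blocked ratios of Apoe to the other genes cannot give a p under 0.25.

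With 3 cultures a group and counts under 1 CPM left out, changes of Apoc2 and of genes as low as Bcam and Clasrp could not be resolved.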

Other observations

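Genes that act on either side of the LXR programme were read from fixed lists. Among 9 lipoprotein receptors and their regulators, 5 were tested and 0 called by edgeR or by DESeq2, with 1 at an unadjusted p under 0.05 (19.1% of all genes tested had such a p). The scavenger receptor Cd36 was at 1877, 1973 and 1883 CPM in Cre- and at 2271, 2036 and 2052 CPM in Cre+. Its groups did not overlap, and the log2 fold change of Cd36 was 0.15 (edgeR adjusted p = 0.068), past the threshold with voom (0.0496), with no filter (7.7e-04) and with filterByExpr (0.032). Sorl1, a sorting receptor, was at 0.34 (0.29), and Lrpap1, a chaperone of lipoprotein receptors, at -0.05 (0.54).

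Of 10 genes of cholesterol transport and esterification, 9 were tested and 1 was called, where 5.07% of all genes tested were. Soat1, which stores cholesterol as esters, was at 1072, 1124 and 1051 CPM in Cre- and at 1225, 1183 and 1291 CPM in Cre+. All Cre+ cultures lay above all Cre- cultures, and Soat1 rose by 0.19 on the log2 scale (SE 0.04, edgeR adjusted p = 0.018), a call lost in 5 alternatives, among them without Cre- replicate 1, Cre- replicate 3 or Cre+ replicate 3 (up to 0.090). Scarb2, a lysosomal membrane protein, was at -0.13 (0.11, and 0.045 in DESeq2), and the lipid transporter Abca7 at -0.26 (0.12). Of 8 enzymes that make or degrade oxysterols, the ligands of LXR, only Cyp27a1 was tested, at a log2 fold change of 0.04 (0.96). Of 11 other apolipoproteins only Clu was tested. Clu was at 3.30, 3.58 and 3.31 CPM in Cre- and at 5.04, 4.60 and 5.17 CPM in Cre+, and it rose by 0.54 (SE 0.14, edgeR adjusted p = 0.043), opposite in sign to Apoe, a call lost without each of the 6 libraries in turn (up to 0.14).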
